A study of Mus musculus with 16 samples.

Results

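The nuclear-encoded subunits of the mitochondrial respiratory chain and of ATP synthase were followed in antigen-binding mouse B cells that carried 1 or 2 copies of a modified Zfp318 allele. The genes were taken by symbol. Symbols began with Ndufa, Ndufb, Ndufc, Ndufs or Ndufv and a digit, or with Uqcr, Atp5 or Cox4 to Cox8. Sdha to Sdhd and Cyc1 were added, and the Ndufaf assembly factors were left out. The rule gave 85 of the 22675 genes measured. Of these, 35 belong to complex I, 4 to complex II, 9 to complex III, 20 to complex IV and 17 carry the ATP synthase prefix. Atp5s and Atp5sl enter through their symbols alone and are not counted among the structural subunits of the enzyme. Ndufa4 and Ndufa4l2 were placed with complex IV, where the Ndufa4 protein is found.

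The respiratory chain passes electrons from NADH (at complex I) and succinate (at complex II) through ubiquinone to complex III, then through cytochrome c to complex IV, which reduces oxygen. Complexes I, III and IV pump protons across the inner mitochondrial membrane, and ATP synthase uses the returning protons to make ATP. Complex II is wholly nuclear-encoded, whereas the other complexes also hold subunits encoded by mitochondrial DNA. Activated and germinal center B cells are known to raise mitochondrial respiration, while resting lymphocytes, memory cells included, rely on it for their basal energy.

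Libraries were made with Smart-seq2 from about 1000 sorted spleen cells each, taken from C57BL/6 mice 7 days after immunization with NP-OVA in LPS and alum. All mice carried AID-Cre, a recombinase under the control of the gene for activation-induced deaminase, and the B1-8hi heavy chain with GFP, which gives many B cells an affinity for the hapten. Sorted cells bound NIP, were positive for B220 and CD38, and lacked CD138, GL7, FAS and IgD. The 4 groups had 4 libraries each. KOTP and KOTN were the tdTomato-positive and tdTomato-negative cells of homozygous mice (Zfp318ZSDAT/ZSDAT), and HetTP and HetTN those of heterozygous mice (Zfp318ZSDAT/+). Whether each library stands for an animal of its own is not stated in the labels, and the p-values reflect only library-to-library spread, which may be technical.

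Levels are given as CPM (counts per 1000000 of the library total, scaled by TMM), with SD over 4 libraries. Total counts ran from 7748787 to 15742445 per library. The targeted gene Zfp318 had 2.83, 2.92, 0.91 and 1.23 CPM in KOTP and 5.83, 0.47, 1.46 and 2.17 CPM in KOTN, against 110, 83.9, 94.2 and 121 CPM in HetTP and 71.0, 153, 117 and 133 CPM in HetTN, so every homozygous library lay below every heterozygous library. A list of 10 B cell genes summed to between 18068 and 19839 CPM in KOTP and between 17655 and 18330 CPM in KOTN, against 11149 to 13870 CPM in HetTP and 12662 to 16404 CPM in HetTN, and none of the 10 was at 0 in any group. Memory B cell surface markers spanned 1187 to 1264 CPM in KOTP and 1114 to 1128 CPM in KOTN. They spanned 261 to 358 CPM in HetTP and 282 to 391 CPM in HetTN. Markers of T cells, macrophages, dividing cells and germinal center cells were lower in homozygous than in heterozygous libraries of the same tdTomato sort. The 10 T cell markers summed to at most 49.8 CPM in the homozygous libraries and to at least 205 CPM in the heterozygous ones, and 5 of them were at 0 throughout KOTP and 6 throughout KOTN, against 2 in HetTP and 2 in HetTN. The 12 macrophage and monocyte markers spanned 88.6 to 116 CPM in KOTP and 115 to 163 CPM in KOTN, against 140 to 737 CPM in HetTP and 526 to 1379 CPM in HetTN. The 12 dividing cell markers spanned 483 to 613 CPM in KOTP and 764 to 934 CPM in KOTN, against 1104 to 2858 CPM in HetTP and 1759 to 2430 CPM in HetTN. The 9 germinal center markers spanned 274 to 352 CPM in KOTP and 442 to 569 CPM in KOTN, against 620 to 1100 CPM in HetTP and 763 to 1194 CPM in HetTN. Other lists did not share this direction throughout. Plasma cell markers spanned 1054 to 1184 CPM in KOTP and 829 to 881 CPM in HetTP. They spanned 1127 to 1269 CPM in KOTN and 1102 to 2139 CPM in HetTN. Dendritic cell sums overlapped between KOTP and HetTP and were higher in KOTN than in HetTN. Erythroid sums overlapped between KOTN and HetTN and were lower in KOTP than in HetTP. The part of these cells in the differences between genotypes was not tested. Each genotype was also deposited as a table of its own, so genotype and table cannot be told apart. The number of mapped reads behind the authors' deposited per-million values differed from the counts in opposite ways: coding counts per such read were 0.377 to 0.395 in KOTP and 0.369 to 0.419 in KOTN, against 1.44 to 1.5 in HetTP and 1.35 to 1.45 in HetTN. Whether counts were obtained in the same way for both genotypes was not tested, and every comparison between genotypes carries this limit. Genes without a count made up 48.5% to 49.6% in KOTP and 48.8% to 49.1% in KOTN, against 53.3% to 56.4% in HetTP and 56.2% to 57.4% in HetTN. The correlation of log2 CPM between libraries of a group, across genes, was 0.969 to 0.972 in KOTP and 0.965 to 0.974 in KOTN, against 0.824 to 0.841 in HetTP and 0.791 to 0.805 in HetTN. The part of these differences in the results between genotypes was not tested. In bulk samples of this kind, fewer cells of a type and less RNA per cell cannot be told apart either.

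Nuclear respiratory genes are known to share a small set of promoter elements, bound by NRF1, by the ETS-family factor GABP (also called NRF2) and by YY1. RefSeq promoters (GRCm38.p6, 250 bases before to 50 bases after the start) were held for 67 of the 85 genes. The following belong to 8 of the 9 subunit genes that passed a test between genotypes (Ndufa2 is not shown), given so that the elements can be read beside the values. Capitals mark matches on either strand to the NRF1 core GCGCATGC, the ETS motif CCGGAAG, the YY1 motif AAGATGGC and the CCAAT box.
Ndufa6 (chr15:82354242-82354541, minus strand): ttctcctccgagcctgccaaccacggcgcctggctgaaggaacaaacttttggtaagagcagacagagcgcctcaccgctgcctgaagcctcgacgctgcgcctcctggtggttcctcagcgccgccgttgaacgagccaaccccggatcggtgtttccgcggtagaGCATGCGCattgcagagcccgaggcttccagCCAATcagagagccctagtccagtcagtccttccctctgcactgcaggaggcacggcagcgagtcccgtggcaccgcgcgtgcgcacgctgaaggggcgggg
Ndufa13 (chr8:69901971-69902270, minus strand): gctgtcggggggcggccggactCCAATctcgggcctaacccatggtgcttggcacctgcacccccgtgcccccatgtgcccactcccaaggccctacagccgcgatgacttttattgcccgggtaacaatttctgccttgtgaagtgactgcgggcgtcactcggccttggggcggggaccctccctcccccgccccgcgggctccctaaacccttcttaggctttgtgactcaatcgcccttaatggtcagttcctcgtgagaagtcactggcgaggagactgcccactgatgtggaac
Ndufa3 (chr7:3617123-3617422, plus strand): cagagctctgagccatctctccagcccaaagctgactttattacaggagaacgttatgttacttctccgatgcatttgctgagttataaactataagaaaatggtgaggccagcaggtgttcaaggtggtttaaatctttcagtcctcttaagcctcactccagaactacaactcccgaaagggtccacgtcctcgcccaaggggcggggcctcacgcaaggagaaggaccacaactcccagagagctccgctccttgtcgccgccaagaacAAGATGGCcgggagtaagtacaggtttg
Uqcrh (chr4:116075021-116075320, minus strand): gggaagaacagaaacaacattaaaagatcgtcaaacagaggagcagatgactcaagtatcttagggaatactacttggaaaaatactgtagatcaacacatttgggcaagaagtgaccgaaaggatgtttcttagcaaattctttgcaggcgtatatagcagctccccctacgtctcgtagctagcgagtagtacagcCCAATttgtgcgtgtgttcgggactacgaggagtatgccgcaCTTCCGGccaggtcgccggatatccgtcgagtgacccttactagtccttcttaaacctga
Cox8a (chr19:7217567-7217866, minus strand): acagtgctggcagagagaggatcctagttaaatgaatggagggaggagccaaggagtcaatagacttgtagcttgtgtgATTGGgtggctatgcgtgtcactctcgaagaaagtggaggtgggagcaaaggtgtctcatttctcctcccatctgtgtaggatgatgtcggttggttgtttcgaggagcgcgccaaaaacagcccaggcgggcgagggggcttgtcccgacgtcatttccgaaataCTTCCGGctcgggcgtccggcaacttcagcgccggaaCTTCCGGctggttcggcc
Atp5g2 (chr15:102670998-102671297, minus strand): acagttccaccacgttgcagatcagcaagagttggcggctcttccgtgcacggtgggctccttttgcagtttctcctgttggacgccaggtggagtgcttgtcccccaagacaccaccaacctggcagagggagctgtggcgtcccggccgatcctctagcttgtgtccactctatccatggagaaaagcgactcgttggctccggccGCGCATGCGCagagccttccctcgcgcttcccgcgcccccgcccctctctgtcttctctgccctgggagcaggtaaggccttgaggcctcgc
Ndufb6 (chr4:40279372-40279671, minus strand): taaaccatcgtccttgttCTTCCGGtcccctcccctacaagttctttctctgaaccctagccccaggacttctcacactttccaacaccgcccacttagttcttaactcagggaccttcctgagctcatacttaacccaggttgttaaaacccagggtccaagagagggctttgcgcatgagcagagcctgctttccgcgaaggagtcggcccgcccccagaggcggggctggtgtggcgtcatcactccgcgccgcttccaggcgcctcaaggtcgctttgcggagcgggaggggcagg
Atp5j (chr16:84834927-84835226, minus strand): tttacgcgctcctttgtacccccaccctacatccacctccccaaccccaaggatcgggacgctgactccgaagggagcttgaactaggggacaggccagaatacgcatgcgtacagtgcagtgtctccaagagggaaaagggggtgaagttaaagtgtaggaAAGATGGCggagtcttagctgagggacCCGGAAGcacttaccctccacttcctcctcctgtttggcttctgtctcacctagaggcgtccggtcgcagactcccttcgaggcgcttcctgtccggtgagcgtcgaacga

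The NRF1 core stood in at least 1 promoter of 10 of the 67 genes (14.9%), against 3.05% of the 27025 genes with a promoter of the same length. The ETS motif stood in 16 (23.9%) against 9.93%, the YY1 motif in 10 (14.9%) against 3.19%, and the CCAAT box, a general element, in 30 (44.8%) against 41.1%. Among the promoters printed, Ndufa6 held 1 NRF1 core, Ndufa3 1 YY1 motif, Ndufa13 a CCAAT box alone, Cox8a 2 ETS motifs, Uqcrh and Ndufb6 1 ETS motif each, and Atp5j 1 ETS and 1 YY1 motif. RefSeq has another promoter for Atp5j (chr16:84835576-84835875), not printed, with none of these motifs. In Atp5g2 the NRF1 core overlapped its own reverse complement, so that both strands matched at the same place. A match describes the letters of the window and is no evidence of binding. By complex, the YY1 motif was found in 7 of 31 complex I and 3 of 14 ATP synthase genes and in none of 3 complex II, 5 complex III and 14 complex IV genes. Head-to-head neighbours were frequent: 22 of the 85 genes (25.9%) had another protein-coding gene starting within 1000 bases on the opposite strand, against 7.23% of 21951 protein-coding genes. That reference and the 27025 genes above are not limited to genes expressed in these cells. Uqcrh lies head to head with Lrrc41, Ndufa2 with Ik, Ndufa7 with the ribosomal protein gene Rps28, and Sdhd with the mitochondrial import gene Timm8b.

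Subunit genes were among the well measured genes of these cells, and their levels per length differed widely within each complex. Per kilobase of coding sequence, averaged over the 16 libraries, the highest level in ATP synthase was 3657 CPM for Atp5e, the epsilon subunit of the central stalk, followed by 1049 CPM for Atp5h, a subunit of the peripheral stalk. In complex IV, Cox8a had 3414 and Cox6b1 2662 CPM per kilobase, both encoding small accessory subunits. In complex III the hinge protein gene Uqcrh had 2002 and Uqcr10 1350 CPM per kilobase. In complex I, Ndufa2 had 1433 and Ndufa13 922 CPM per kilobase, both accessory subunits. In complex II the iron-sulfur subunit gene Sdhb had 443 CPM per kilobase and the membrane anchor gene Sdhd 204 CPM per kilobase. The catalytic beta subunit gene Atp5b, at 895 CPM per kilobase, stood below 3 other genes of ATP synthase. The lowest of the 34 tested complex I genes was Ndufs1, the largest core subunit, at 43.7 CPM per kilobase. Values per length use the annotated coding sequence only, and short genes led the order in complexes I, III and IV and in ATP synthase.

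**Figure D1:**
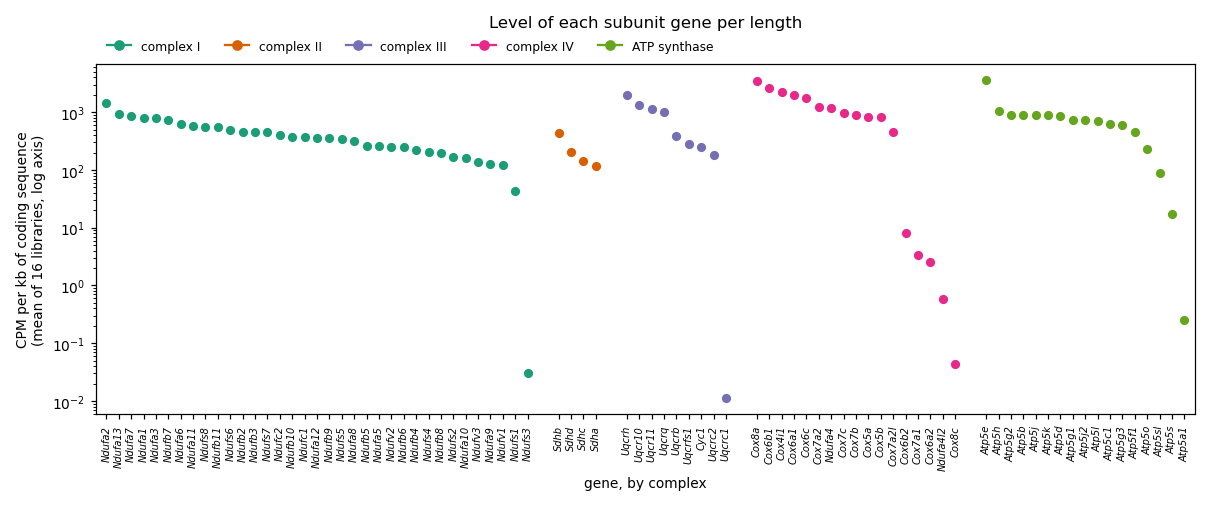
Level of 82 subunit genes in CPM per kilobase of coding sequence (log axis, mean of 16 libraries), ordered within each complex and coloured by complex; the 3 genes without a count are left out. Atp5e, Cox8a and Cox6b1 lie at the top, and Ndufs3, Uqcrc1 and Atp5a1 lie far below the other subunits of their complexes.

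The paralogs of complex IV were listed at very different levels, and a gene listed at or near 0 is not taken as absent. Cox4i1 had 2270 CPM per kilobase, while its lung-type counterpart Cox4i2 had no count in any library. Cox6a1 had 1958 and Cox6b1 2662 CPM per kilobase, against 2.54 for Cox6a2, the heart and muscle form, and 8.10 for Cox6b2, the testis form. Cox7a2 had 1212 and Cox7a2l, a factor of respiratory supercomplexes, 459 CPM per kilobase, against 3.32 for Cox7a1, the heart and muscle form. Cox7b had 898 CPM per kilobase, and Cox7b2 had no count. Cox8a was accompanied by Cox8b without a count and by Cox8c at 0.04 CPM per kilobase. Ndufa4 had 1196 CPM per kilobase, and its paralog Ndufa4l2 0.58. The 3 genes for the c-ring of ATP synthase, which encode the same mature protein, were all present, with 903 CPM per kilobase for Atp5g2, 728 for Atp5g1 and 599 for Atp5g3.

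Subunits that no complex can do without were nonetheless listed at or near 0. Atp5a1, the catalytic alpha subunit, had 82 counts over all 16 libraries, Ndufs3, a core subunit of complex I, had 4, and Uqcrc1, a core protein of complex III, had 2. These values sat beside partners of the same enzyme at high levels, such as Atp5b with 248854 counts, and are given as listed, not as absence of the RNA. In all, 9 of the 85 genes did not pass the filter on low counts over the 16 libraries, the other 6 being Cox4i2, Cox6a2, Cox7b2, Cox8b, Cox8c and Ndufa4l2. Near-identical copies (at least 95% identity over at least 50% of the coding sequence) exist elsewhere in the genome for 21 of the 85, mostly processed pseudogenes, and how reads with several placements were treated is not given in the sources used here. Values for these genes are uncertain to that extent, and Atp5g2 is the only one of them among the genes that passed a test.

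Summed over the 85 genes, the level was 21137, 22248, 21656 and 24820 CPM in KOTP and 24093, 22625, 22555 and 22521 CPM in KOTN, against 16037, 19401, 21014 and 20574 CPM in HetTP and 16542, 24808, 21956 and 24470 CPM in HetTN. All KOTP libraries lay above the HetTP libraries, although the gap between the lowest KOTP and the highest HetTP library was small, and KOTN lay within the range of HetTN. The means were 22465 ± 1634 CPM in KOTP, 22949 ± 764 CPM in KOTN, 19257 ± 2252 CPM in HetTP and 21944 ± 3820 CPM in HetTN (SD, n = 4). As a share of all counts, with no further scaling, the genes took 2.11% ± 0.10 in KOTP and 2.18% ± 0.04 in KOTN, against 2.11% ± 0.22 in HetTP and 2.21% ± 0.27 in HetTN. The higher KOTP level was thus present on the TMM scale and not in the plain share of counts. Relative to the B cell list the order was the opposite, with a ratio of 1.18 ± 0.14 in KOTP and 1.28 ± 0.06 in KOTN, against 1.57 ± 0.29 in HetTP and 1.60 ± 0.30 in HetTN. The divisor of this ratio itself differed by genotype, with 18068 to 19839 CPM in KOTP against 11149 to 13870 CPM in HetTP. The ratio is therefore no measure of subunit RNA per B cell.

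The spread between libraries was itself shared across the genes. In HetTN, replicate 1 had the lowest level of the group for 56 of the 76 tested genes, and in HetTP replicate 1 had the lowest for 51 of 76. In KOTP, replicate 4 had the highest level for 65 of 76, and in KOTN replicate 1 for 45 of 76. The median coefficient of variation of a gene was 9.52% in KOTP and 6.75% in KOTN, against 18.3% in HetTP and 26.5% in HetTN. The makeup of the set varied less than its sum: complex I gave 31.9% ± 0.3 of the summed level in KOTP, 31.7% ± 0.4 in KOTN, 30.9% ± 1.1 in HetTP and 31.8% ± 1.0 in HetTN. Complex IV gave 28.1% ± 0.6 in KOTP and 27.8% ± 0.5 in KOTN, against 26.4% ± 0.6 in HetTP and 25.7% ± 1.4 in HetTN, and ATP synthase gave 27.2% ± 0.5 in KOTP and 27.5% ± 0.6 in KOTN, against 29.3% ± 1.0 in HetTP and 28.4% ± 1.4 in HetTN.

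**Figure D2:**
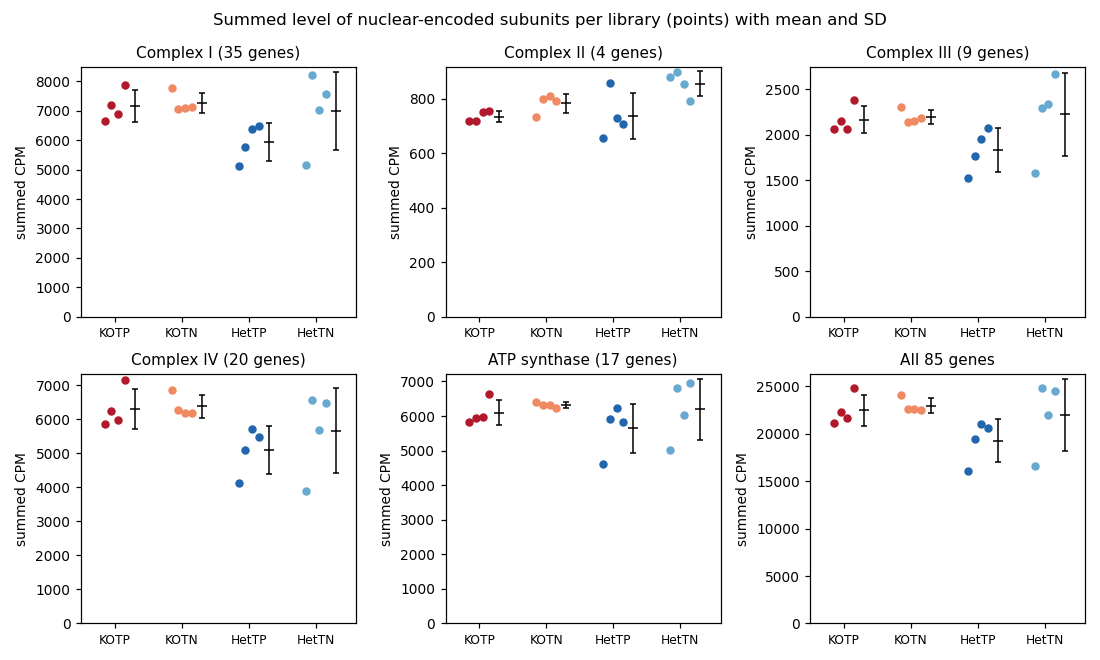
Summed CPM of the subunit genes of each complex and of all 85 genes, 1 point per library, with the mean and SD of each group beside the points. KOTP libraries lie above HetTP libraries in complexes I and IV, and the heterozygous groups spread more widely, with replicate 1 lowest in complexes I, III and IV and ATP synthase.

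The study set Zfp318-deficient cells against cells that keep the gene's function. Among tdTomato-positive cells, 6 of the 76 tested subunit genes were higher in KOTP than in HetTP and 0 were lower, at an adjusted p under 0.05 in edgeR's quasi-likelihood test with Benjamini-Hochberg adjustment over all 10687 genes. Over all genes, 5.06% were called higher and 5.22% lower. At an unadjusted p under 0.05, 18 of the 76 passed, 17 with positive values and Ndufa5 at -0.50 on the log2 scale. DESeq2 called 8 and voom 7, all higher. For counts at an unadjusted p and for DESeq2 and voom, here and below, no share over all genes is given. They are therefore not read as a result about the set. The median SE was 0.18 for the subunit genes and 0.47 for all genes tested. The median log2 fold change of the 76 was 0.16, against -0.03 for all genes tested. All 4 libraries of KOTP lay above all 4 of HetTP for 20 of the 76, against 11.4% of all genes, and below them for 1, Cox7a2l, against 8.71%.

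Of the 6 called genes, 4 encode accessory subunits of complex I, a role held by 28 of the 76 genes tested. Over all genes, 5.06% were called higher, and the grouping by role was made after the values were seen. Ndufa6 encodes an accessory subunit of the LYR family at the matrix arm (GRCm38 chr15:82350140-82354322). It had 318, 338, 326 and 386 CPM in KOTP, against 169, 232, 196 and 188 CPM in HetTP. The groups did not overlap, and the log2 fold change was 0.80 ± 0.17 (SE, adjusted p = 0.00515). Ndufa2, which has a thioredoxin-like fold, had 459, 488, 498 and 537 CPM in KOTP, against 291, 278, 340 and 390 CPM in HetTP, which gave 0.61 ± 0.15 as log2 fold change (SE, adjusted p = 0.00988). Ndufa13, also known as GRIM-19, spans the inner membrane (chr8:69894180-69902558). It had 430, 472, 475 and 525 CPM in KOTP, against 293, 228, 324 and 358 CPM in HetTP, and the log2 fold change was 0.66 ± 0.19 (SE, adjusted p = 0.029). The remaining called gene, Ndufa3, a membrane subunit (chr7:3617373-3620327), is named here because of its value: it had 315, 333, 320 and 398 CPM in KOTP, against 203, 187, 213 and 243 CPM in HetTP, with a log2 fold change estimated at 0.69 ± 0.22 (SE, adjusted p = 0.0474). No library of HetTP reached the lowest KOTP library for any of these 4 genes.

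None of the 6 tested core subunits of complex I, which carry the flavin and the iron-sulfur clusters or bind ubiquinone, passed the test, and their log2 fold changes ran from -0.28 to 0.40. These 6 are too few to set against the accessory subunits. All have at least 636 coding bases, and no subunit gene of 450 or more was called, so role and length cannot be told apart. Complex II, the entry point from succinate, had no called gene among 4, and its fold changes ran from -0.37 for Sdhc to 0.41 for Sdhd, both membrane anchors. In complex III the called gene was Uqcrh (chr4:116066965-116075071), which encodes the acidic hinge protein beside cytochrome c1. It had 626, 651, 599 and 700 CPM in KOTP, against 277, 352, 440 and 422 CPM in HetTP. The groups stood apart, with a log2 fold change estimated at 0.79 ± 0.17 (SE, adjusted p = 0.00504). The redox carriers of the same complex, Cyc1 and Uqcrfs1, had log2 fold changes of -0.14 and 0.21 and did not pass.

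In complex IV the called gene was Cox8a (chr19:7215153-7217616), a small subunit in its ubiquitous form. It had 822, 880, 890 and 1076 CPM in KOTP, against 530, 513, 636 and 568 CPM in HetTP, and the log2 fold change was 0.71 ± 0.15 (SE, adjusted p = 0.00538). Cox4i1, the most abundant complex IV gene by CPM, had 1508, 1633, 1577 and 1785 CPM in KOTP, against 922, 1114, 1371 and 1382 CPM in HetTP. Its groups did not overlap, but its adjusted p was 0.0644 at a log2 fold change of 0.44 ± 0.15 (SE). No ATP synthase gene passed among 16. The fold changes of the 4 tested genes of the F1 head and central stalk ran from -0.15 to 0.30 on the log2 scale, those of the c-ring from -0.20 to 0.45 and those of the peripheral stalk from -0.17 to 0.32.

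All 6 called genes are short, with 222 to 440 coding bases. Across the 76 genes, fold change and coding length had a Spearman coefficient of -0.19, and across 10135 genes with a known coding length it was -0.08, both given as descriptions. With the genes split at 450 coding bases, a value chosen after the data were seen, the median log2 fold change was 0.15 for the 43 shorter and 0.16 for the 33 longer subunit genes. The calls were 6 of the 43 shorter and 0 of the 33 longer, where 12.2% of the 798 shorter and 4.55% of the 9337 longer genes overall were called higher, so the share among short subunit genes was near that of short genes in general.

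The number of calls depended on scaling and on single libraries. On library totals alone the median of all genes was -0.25 and that of the subunit genes -0.07. Relative to that scale 3 genes were called higher, Ndufa6, Uqcrh and Cox8a, and 4 lower, namely Atp5b at -0.38, Cox7a2l at -0.53, Ndufa5 at -0.73 and Sdhc at -0.59. Upper quartile scaling called 12, all higher. Leaving out 1 library gave between 4 and 11 calls: 4 without KOTP replicate 2, 3 or 4 or HetTP replicate 1 or 2, and 11 without HetTN replicate 1, which is in the fit but not among the libraries compared. Ndufa6, Uqcrh and Cox8a were called under each of 11 other settings and each of 24 leave-outs. In the same comparison all 12 dividing cell markers, 5 of 9 germinal center, 3 of 5 tested T cell and 6 of 11 tested macrophage markers were lower in KOTP. Of 10 B cell genes, 6 were called higher, such as Cd79b with 3777 ± 150 CPM in KOTP and 2258 ± 115 CPM in HetTP (SD, n = 4). A further 1 of the 10 was called lower, at a log2 fold change of -1.54.

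**Figure D3:**
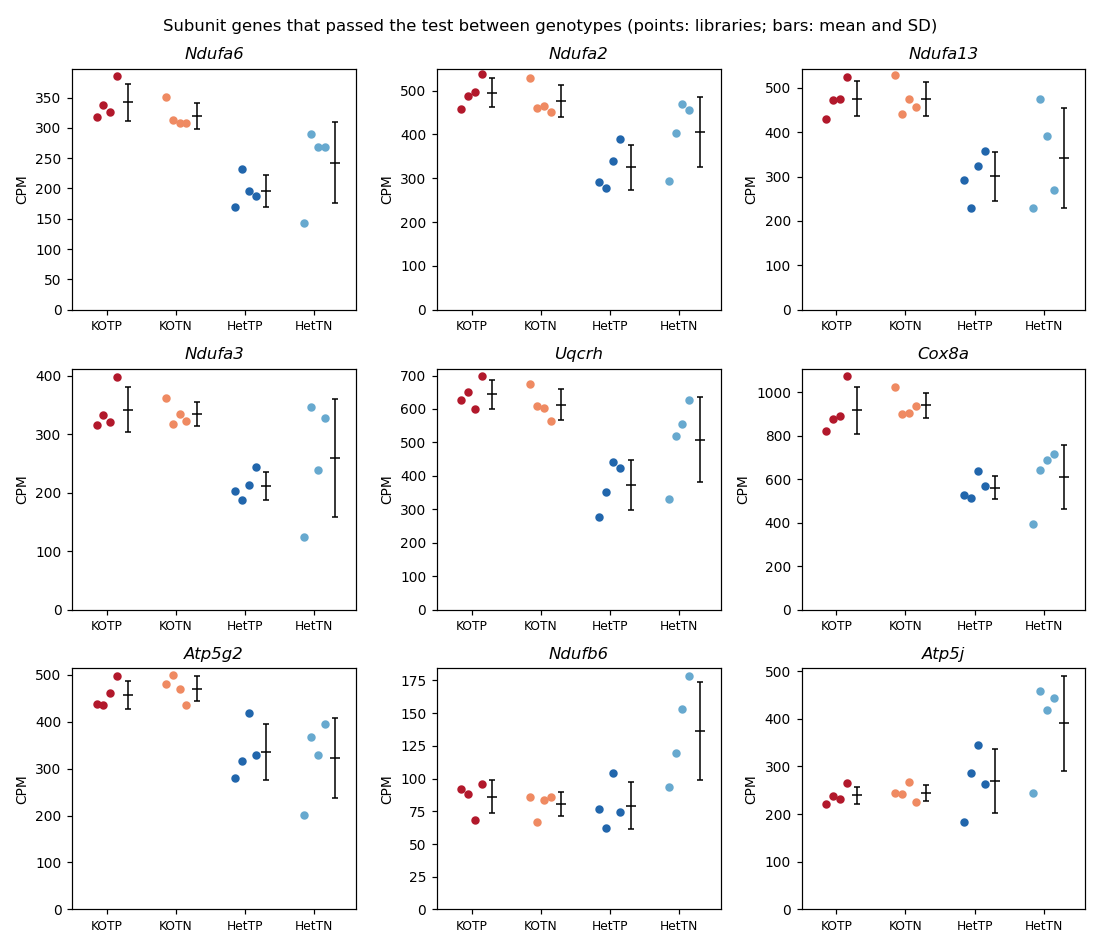
CPM of the 9 subunit genes that passed the test in at least 1 comparison between genotypes, 1 point per library, with the mean and SD of each group. The 6 genes higher in KOTP show no overlap with HetTP, and HetTN replicate 1 is the lowest of its group in each of the 9 panels.

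Among tdTomato-negative cells the calls were fewer and ran both ways. Of the 76 tested genes, 2 were higher and 2 were lower in KOTN than in HetTN, against 5.61% of all genes called higher and 4.88% lower. The median log2 fold change of the 76 was 0.02, and that of all genes was near 0. At an unadjusted p under 0.05, 15 passed, DESeq2 called 6 and voom 5. All KOTN libraries lay above all HetTN libraries for 8 genes, against 12.5% of all genes, and below them for 6, against 7.15%. Complex II and complex III had no called gene, with median log2 fold changes of -0.14 and -0.11.

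Cox8a was the only subunit gene called in both sorted populations. It had 1025, 899, 905 and 938 CPM in KOTN, against 394, 643, 690 and 717 CPM in HetTN, without overlap, and the log2 fold change was 0.62 ± 0.15 (SE, adjusted p = 0.0149). Atp5g2, for a c-ring subunit of ATP synthase (chr15:102662864-102672352), had 480, 498, 468 and 435 CPM in KOTN, against 201, 366, 329 and 395 CPM in HetTN. Its log2 fold change was 0.54 ± 0.17 (SE, adjusted p = 0.047), just inside the threshold, and its paralogs Atp5g1 and Atp5g3 had log2 fold changes of -0.42 and -0.39 without passing. Ndufb6, an accessory membrane subunit of complex I (chr4:40270591-40279421), was lower: it had 85.8, 66.5, 83.8 and 85.8 CPM in KOTN, against 93.6, 120, 153 and 178 CPM in HetTN, with a log2 fold change estimated at -0.76 ± 0.21 (SE, adjusted p = 0.0265). Atp5j, coupling factor 6 of the peripheral stalk (chr16:84827866-84835625), had 244, 241, 267 and 225 CPM in KOTN, against 244, 458, 418 and 443 CPM in HetTN. Its groups overlapped through HetTN replicate 1, and the log2 fold change was -0.68 ± 0.19 (SE, adjusted p = 0.0282). The testis isoform Cox6b2 had no count in HetTN and 38 counts over the 4 KOTN libraries. Against a floor of 3 counts over the group its level was at least 18-fold higher, and its adjusted p was 0.0652.

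The number of these calls depended on the libraries in the fit. Of 11 other settings, 10 called Cox8a, 10 Ndufb6, 10 Atp5j and 5 Atp5g2. Of 24 leave-outs, 17 called Cox8a, 11 Ndufb6, 10 Atp5j and 5 Atp5g2. A fit of the 8 tdTomato-negative libraries alone called 0 of 75 tested subunit genes, where DESeq2 on the same 8 libraries called 5 and voom 4. Leaving out 1 library in the fit of all 16 gave between 1 and 7 calls: 1 without any of the 4 KOTN libraries or without HetTN replicate 3, and 7 without HetTP replicate 1 or HetTN replicate 1 or 2. In this comparison 10 of 12 dividing cell, 4 of 9 germinal center, 3 of 5 tested T cell and 7 of 11 tested macrophage markers were lower in KOTN. Of 10 B cell genes, 6 were called higher and 1 lower, the last at a log2 fold change of -1.61.

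Within the homozygous libraries, none of 76 tested subunit genes was called between KOTP and KOTN, where 236 of 9974 genes (2.37%) were. DESeq2 and voom also called 0, and 2 passed at an unadjusted p under 0.05. This comparison was the most precise of all: the median SE of a subunit gene's log2 fold change was 0.08, and for 73 of the 76 the 95% interval lay within 0.5 of 0. The median log2 fold change was -0.02, against 0.01 over all genes, and by complex it ran from -0.03 to -0.01. The smallest p belonged to Ndufs8, a core subunit of complex I that carries iron-sulfur clusters, with 336, 370, 352 and 366 CPM in KOTP and 395, 390, 412 and 403 CPM in KOTN. These groups did not overlap, but the log2 fold change of -0.16 ± 0.07 (SE) had an adjusted p of 0.325. The iron-sulfur subunit gene of complex II, Sdhb, had 310, 326, 333 and 371 CPM in KOTP and 372, 374, 389 and 377 CPM in KOTN, with a log2 fold change estimated at -0.16 ± 0.07 (SE, adjusted p = 0.355). The next smallest p belonged to Uqcrq, a small subunit of complex III, at -0.17 ± 0.09, Atp5s at -0.41 ± 0.24 and Ndufa6 at 0.11 ± 0.08 (log2 fold change, SE). Without KOTP replicate 4, or with no filter on low counts, 1 gene was called lower, the muscle isoform Cox6a2, which had at most 0.92 CPM in KOTP and at most 4.21 CPM in KOTN. In the same comparison 7 of 12 dividing cell and 4 of 9 germinal center markers were lower in KOTP.

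Within the heterozygous libraries no gene of any kind was called between HetTP and HetTN (0 of 9703, 0.0%), so the 74 subunit genes tested there gave 0 calls as well. At an unadjusted p under 0.05, 6 of the 74 passed, and DESeq2 and voom called 0 of them. The values leaned to one side: 60 of 74 had negative fold changes, the median log2 fold change was -0.18 against 0.02 over all genes, and all 8 tested complex III genes had negative values. On library totals alone the median was -0.05, against 0.14 over all genes. The intervals were wide, with a median SE of 0.24, and for 5 of the 74 genes the 95% interval lay within 0.5 of 0. Ndufb6 had 76.4, 62.5, 104 and 74.2 CPM in HetTP and 93.6, 120, 153 and 178 CPM in HetTN, with a log2 fold change estimated at -0.78 ± 0.27 (SE, adjusted p = 0.882). Ndufa1, a membrane subunit of complex I encoded on the X chromosome, had 101, 117, 138 and 173 CPM in HetTP and 162, 188, 249 and 223 CPM in HetTN, with -0.63 ± 0.23 (log2 fold change, SE, adjusted p = 0.885). Both pairs of groups overlapped. The other genes with the smallest p, Atp5f1 and Atp5j of the peripheral stalk and Atp5g1 of the c-ring, had log2 fold changes of -0.48, -0.54 and -0.61. No subunit gene had all HetTP libraries on one side of all HetTN libraries. The share of all genes without overlap is not given for this comparison, so this count is a description only. The macrophage markers also had negative values in this comparison, 11 of 11 tested, with 0 called, and the part of such cells in the values was not tested.

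**Figure D4:**
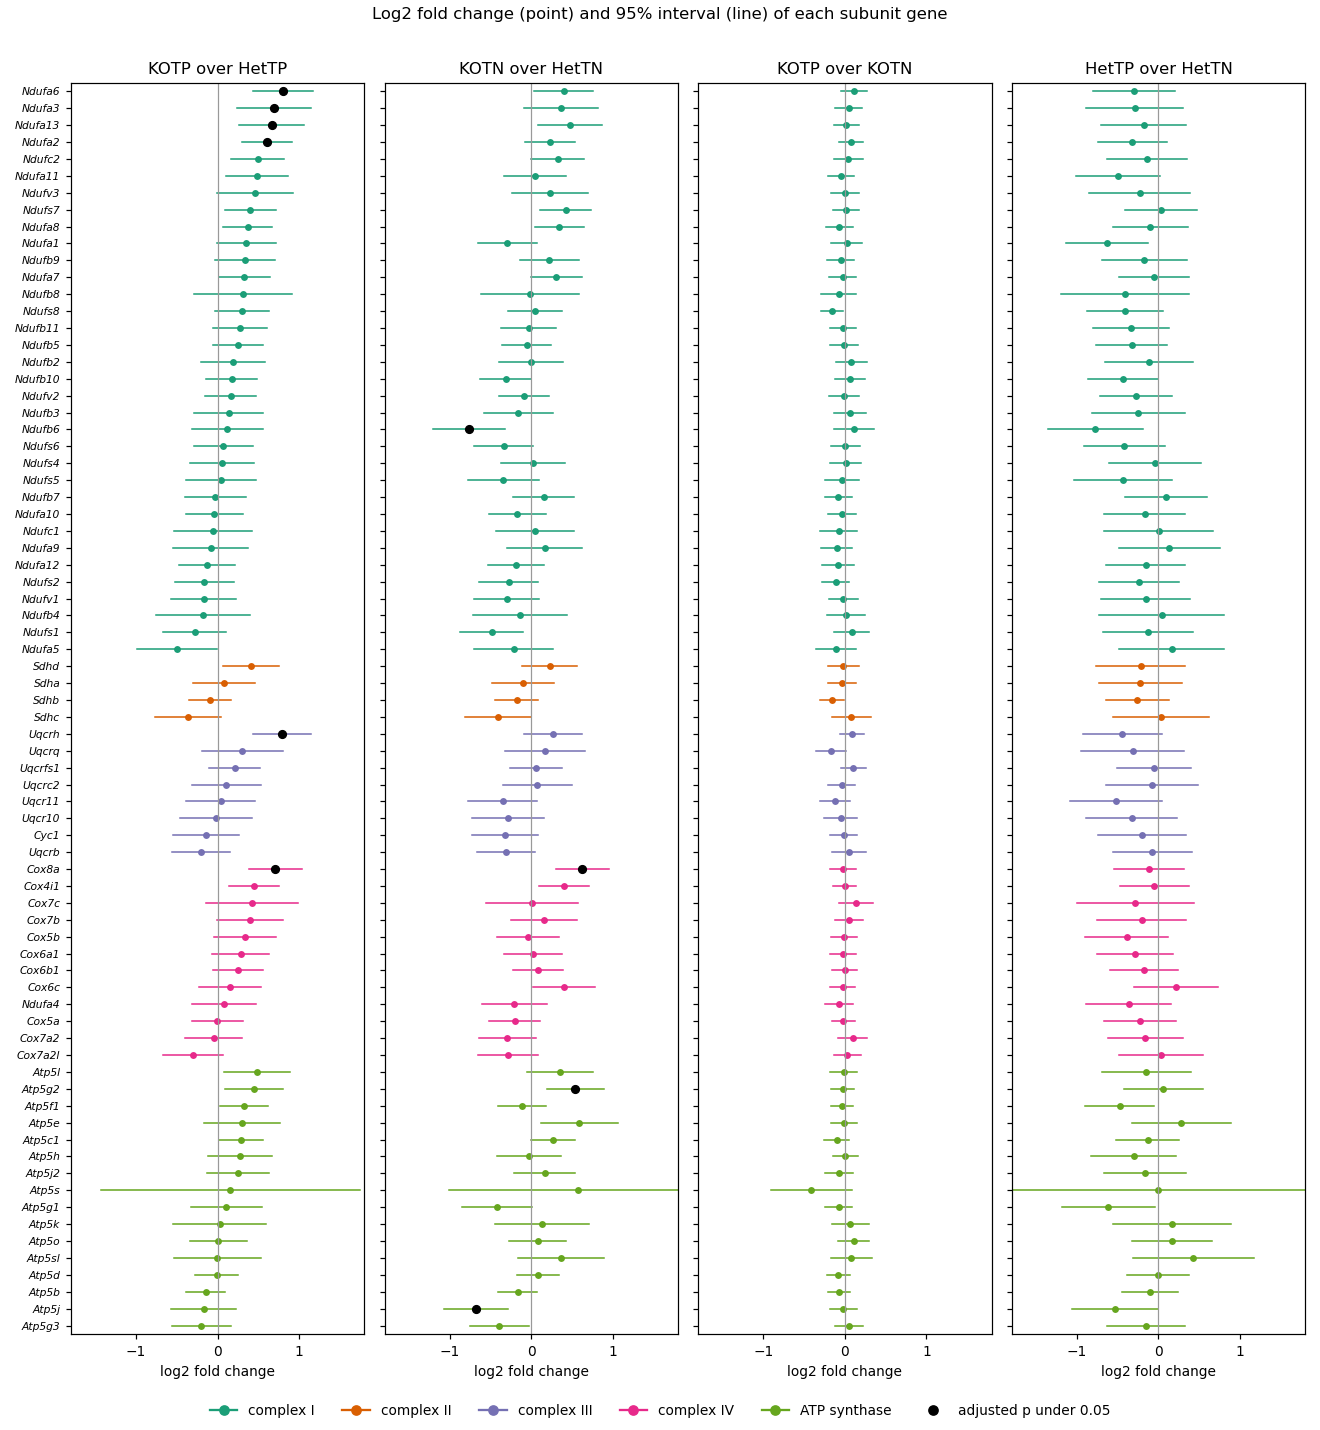
Log2 fold change and 95% interval of 74 subunit genes (Cox6b2 and Cox7a1 are left out for their low counts) in the 4 comparisons, ordered by complex and by the value for KOTP over HetTP; black points passed an adjusted p of 0.05 and the interval of Atp5s runs past the axis. Intervals are narrow between KOTP and KOTN and wider wherever heterozygous libraries enter.

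The difference between these sort effects, KOTP over KOTN against HetTP over HetTN, was tested directly. None of 76 subunit genes was called, where 13 of 10687 genes (0.122%) were, and 6 passed at an unadjusted p under 0.05. Voom called 0, and DESeq2 called 1, Cox6b2, whose HetTP level of 0, 2.62, 2.19 and 36.3 CPM rests on replicate 4 and whose HetTN level is 0. The difference was positive for 59 of 76, with a median of 0.17 on the log2 scale against -0.05 over all genes. After Cox6b2, the smallest p belonged to Ndufb6, with a difference of 0.88 ± 0.30 (log2, SE, adjusted p = 0.289), followed by Ndufa1 at 0.64, Ndufb10, another accessory subunit of complex I, at 0.49 and Atp5f1 at 0.43. A p above the threshold here does not show that the sort acted alike in both genotypes, since the median SE of the difference was 0.26.

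The mitochondrially encoded partners of these subunits had a pattern of their own. The 13 mitochondrial messenger RNAs summed to 16927, 17233, 16708 and 16271 CPM in KOTP and 15445, 16320, 16875 and 15134 CPM in KOTN, against 11343, 21866, 24263 and 16874 CPM in HetTP and 33696, 26795, 42907 and 39735 CPM in HetTN. Every HetTN library lay above all 12 others. In KOTN against HetTN, 11 of the 13 were called lower, among them the complex I subunit genes mt-Nd6, mt-Nd2 and mt-Nd1 with log2 fold changes of -2.83, -1.81 and -1.34, whereas in KOTP against HetTP 1 of 13 was, mt-Nd6 at -0.97. The difference between the sort effects was called for mt-Nd1 and mt-Nd2. None of the list was called between KOTP and KOTN or between HetTP and HetTN, with 5 and 10 at an unadjusted p under 0.05. The ratio of nuclear-encoded to mitochondrially encoded sums was 1.34 ± 0.13 in KOTP, 1.44 ± 0.10 in KOTN, 1.10 ± 0.27 in HetTP and 0.64 ± 0.20 in HetTN (SD, n = 4). Mitochondrial genes have nuclear copies, so their counts are uncertain to the extent that reads mapping to several places were counted.

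**Figure D5:**
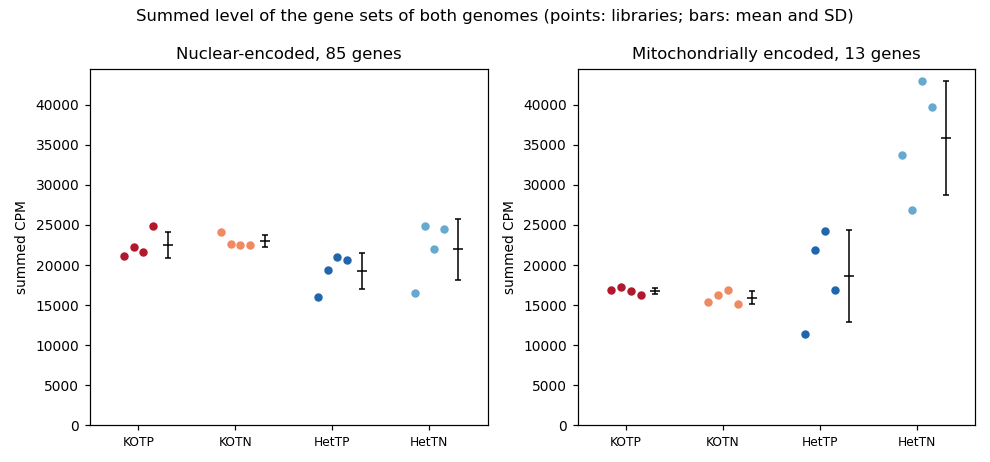
Summed CPM of the 85 nuclear-encoded genes and of the 13 mitochondrially encoded genes on the same scale, 1 point per library, with mean and SD. The nuclear sums of the 4 groups lie close together, while the mitochondrially encoded sum is highest in HetTN.

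The genes that build, feed or regulate the chain were also compared between genotypes. Over all 10687 genes, 5.06% were called higher and 5.22% lower in KOTP against HetTP. In KOTN against HetTN these shares were 5.61% and 4.88%. The calls below are single genes, and no list was tested against those shares. Of 21 tested complex IV assembly factors, 2 were higher in KOTP than in HetTP: Surf1, mutated in human Leigh syndrome, with 117 ± 10 CPM in KOTP and 58.6 ± 14 CPM in HetTP (SD, n = 4; log2 fold change 1.00), and Cox14 at 0.66. Of 12 tested assembly factors for complexes II, III and V, 1 was higher, Uqcc3 at 0.70. None of 14 for complex I passed, with 1 at an unadjusted p under 0.05. Of 20 tricarboxylic acid cycle genes, Idh3b, a subunit of isocitrate dehydrogenase, was higher at 0.55. Of 16 tested regulators of nuclear respiratory genes, 1 was lower, the PGC-1-related coactivator gene Pprc1, with 30.0 ± 6.1 CPM in KOTP and 65.1 ± 25.3 CPM in HetTP. Among 18 carriers and import genes, the phosphate carrier Slc25a3, which supplies ATP synthase, was higher at 0.51, while 3 were lower, the import channel gene Tomm40 at -1.06, the prohibitin gene Phb2 at -0.44 and the chaperonin gene Hspd1, the last named after its value was seen. In KOTN against HetTN, Sdhaf2 at 0.69 and Atpaf2 at 0.94, assembly factors for complexes II and V, were higher, and Cox11, a copper chaperone for complex IV, was lower at -1.22. Of 6 tested subunits and carriers with other symbols, the electron carrier gene Cycs was lower at -0.68, with 100 ± 8 CPM in KOTN and 161 ± 31 CPM in HetTN. Idh3b at 0.45 and Pdhx at 1.91 were higher there, and Pprc1 at -1.05, Tomm40 at -0.75 and Hspd1 at -0.78 were lower. The nuclear receptor gene Esrra was also called higher, at a low level of 2.53 ± 1.55 CPM in KOTN and no count in HetTN. It had 2.41 ± 2.06 CPM in KOTP and 5.75 ± 1.87 CPM in HetTP. The 7 lists described here gave 0 calls in edgeR between KOTP and KOTN and 0 between HetTP and HetTN, with at most 3 genes per list at an unadjusted p under 0.05. Over all genes tested, 2.37% were called between KOTP and KOTN and 0.0% between HetTP and HetTN.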

How the data were processed

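The Smart-seq2 method is named in the labels' protocols. Trim Galore, STAR 2.2.0, featureCounts and the build mm10 are named per the submitters' processing notes. Strand setting, read pairing and reads with several placements are not given in the sources used here. The authors deposited raw counts over coding sequence, 1 table per genotype with 22680 entries, per the file headers. The tables were joined on the symbol, without symbols listed more than once (22675 genes). The deposited per-million columns served only to find the number of mapped reads behind them, and the authors' fold changes and p-values were not used.

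Counts were scaled with TMM, filtered with filterByExpr and compared by the robust quasi-likelihood test of edgeR 4.0.16 (with limma 3.58.1 in R 4.3.3). The tdTomato comparisons used the 8 libraries of 1 genotype. The comparisons between genotypes and the difference of the sort effects used all 16, with 1 mean per group. The Benjamini-Hochberg adjustment ran over every gene tested in a comparison, a gene was called under 0.05, and intervals are 95%.

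Positions and coding lengths came from GENCODE M21 (GRCm38), promoters from RefSeq (GRCm38.p6), and near-identical copies from blastn 2.17.0. The members, lists and tests were chosen with earlier results of these data known. Genes were named by a rule: up to 3 called genes per complex, direction and comparison, the 5 with the smallest p where fewer than 5 were called, the 2 highest per kilobase in each complex, the paralogs, and up to 3 called genes per related list. Other genes, such as Atp5a1, Cyc1, Sdhc and Ndufs1, were chosen after their values were seen, as was the grouping by role. Alternatives were RLE, upper quartile and library total scaling, no filter, at least 5 CPM in 4 libraries, DESeq2 1.42.0, voom with sample weights, a replicate block, another set of libraries in the fit, and each library left out. DESeq2, voom and the leave-outs on the 8 libraries compared were added after the data were seen. Reads carried no molecular identifiers, so the floor of 3 counts covers counting error only.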

Additional observations from a re-analysis of the deposited data

Results flagged for a closer look

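In 18 of 154 sets of 4 libraries tested, the highest or lowest library stood apart from the other 3 by more than Dixon's 95% critical value. For independent sets of normally distributed values, chance alone gives about 1 in 20. These sets are not independent, since the sums contain the single genes. Libraries also shifted many genes together, such as KOTN replicate 1, the highest of its group for 45 of 76 genes. The count of 18 is therefore not read against that rate. Among the sums, KOTN replicate 1 stood above its group in complex I (7768 CPM), complex IV (6877 CPM) and all subunit genes (24093 CPM), and KOTP replicate 4 stood above its group in ATP synthase (6632 CPM). KOTN replicate 1 also stood apart for Ndufa6 (352 CPM), and KOTN replicate 2 was low for Ndufb6 (66.5 CPM). KOTP replicate 4 was high for Cox7a2 (357 CPM).

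In the heterozygous groups, HetTN replicate 1 was low for Ndufa6 (144 CPM), for which the other HetTN libraries had 269 to 290 CPM. It was also low for Cox7a2 (245 CPM). HetTN replicate 4 was high for Sdhd (128 CPM) and Atp5s (18.3 CPM), and HetTN replicate 3 for Ndufa4l2 (2.42 CPM). HetTP replicate 1 was low for Atp5h (351 CPM), HetTP replicate 2 was high for Cox7a2l (253 CPM) and HetTP replicate 4 was low for Sdhd (72.0 CPM). HetTP replicate 2 had 25.9 CPM for Atp5s, against 0.82 to 4.83 CPM in the other 3. HetTP replicate 4 had 36.3 CPM for the testis isoform Cox6b2, against at most 2.62 CPM in the other 15 libraries, and HetTP replicate 1 had 1.83 CPM for Cox7a1, which had 0 in the other 3. The part of low counts in the values of Atp5s, Cox6b2, Cox7a1 and Ndufa4l2 was not tested.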

How the results depend on the processing

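Precision differed by genotype: the median SE of a subunit gene's log2 fold change was 0.08 within the homozygous and 0.24 within the heterozygous libraries, so smaller differences were detectable within the homozygous libraries. None of the genes named for a call or for the smallest p in a comparison reversed its sign under any alternative. Medians over the subunit genes did change sign. For KOTP against HetTP the median was 0.16 with TMM and -0.07 on library totals alone, where calls ran in both directions. Subunit genes called in KOTP against HetTP numbered 6, 12 with upper quartile scaling and 12 with DESeq2 on the 8 libraries compared. The median of all genes in that comparison was 0.07 with upper quartile scaling and -0.25 on library totals alone, and the median of the subunit genes on library totals was -0.07. Leaving out 1 library gave 4 to 11 calls in the fit of 16 libraries and 5 to 12 in the fit of 8. In KOTN against HetTN the count was 4, and 0 in the fit of the 8 libraries compared. Leave-outs gave 1 to 7 calls in the fit of 16 and 0 to 8 in the fit of 8 (2 without HetTN replicate 4). In KOTP against KOTN the count was 0, and 1 with no filter (Cox6a2), with 0 to 1 over the leave-outs. In the difference of the sort effects it was 0, and 1 with DESeq2 (Cox6b2). HetTP against HetTN gave 0 under each alternative and leave-out. The summed KOTN level was 22949 CPM with TMM and 21838 CPM on library totals alone, and the sums of the other 3 groups moved by less than 1 SD. The causes of these shifts were not tested. With the replicate number as a block, the calls were 5 in KOTP against HetTP, 4 in KOTN against HetTN and 0 in the other 3 comparisons. Correlations of the deviations of same-numbered libraries lay between -0.03 and 0.09, the highest for replicate 1 of HetTP and HetTN. Such deviations may be technical, so these values cannot show whether same-numbered libraries came from the same animal.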
